A study of Saccharomyces cerevisiae with 11 samples.

Results

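The cytosol of budding yeast holds several Hsp70 chaperones and the exchange factors that reset them, and 10 of their genes are described here among 5449 measured genes. They were chosen by name: SSA1 (YAL005C), SSA2 (YLL024C), SSA3 (YBL075C), SSA4 (YER103W), SSB1 (YDL229W), SSB2 (YNL209W), SSZ1 (YHR064C), SSE1 (YPL106C), SSE2 (YBR169C) and FES1 (YBR101C). All 10 were measured, by 11 probe sets, since SSB1 has a pair of them, and the brightest probe set stands for a gene.

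Hsp70 binds exposed hydrophobic stretches of unfolded proteins and lets them go in a cycle driven by ATP. J proteins speed the ATP hydrolysis that closes Hsp70 on its client, and nucleotide exchange factors open it again. The Ssa proteins are the general cytosolic Hsp70s. SSA1 and SSA2 are expressed during normal growth, while SSA3 and SSA4 are known as stress-inducible genes. Ssb1 and Ssb2 sit on the ribosome and bind growing chains, helped by Ssz1, an unusual Hsp70 that pairs with the J protein Zuo1. Sse1 and Sse2 are large relatives of Hsp70 (the Hsp110 family) that act as its exchange factors, and Fes1 is an unrelated exchange factor that frees misfolded clients. In yeast, Ssa proteins are known to help degrade CFTR, the human cystic fibrosis chloride channel, which folds poorly.

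The study compared yeast carrying CFTR with yeast carrying a vector. The CFTR cultures held the plasmid pRS426PPGK-CFTR-3HA, in which a PGK promoter drives CFTR with an HA tag, and the controls held pRSGPD426, so that the plasmids differ in promoter as well as in the CFTR gene. Cultures were harvested in mid log phase from selective medium kept at 26 degrees. No strain background is named in the labels. RNA from 4 CFTR and 7 vector samples was hybridised to 1 Affymetrix array each. The titles mark all 7 controls, and no CFTR sample, as a re-analysis, so that this difference and the plasmid cannot be told apart.

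Levels are log2 of the deposited intensity, which is scaled so that every array averages 1. They are relative within an array, so that more of a transcript per cell and less of the other RNA cannot be told apart. Nothing in the labels says which arrays came from separate cultures, and the p-values therefore cover array-to-array spread that may in part be technical. Sample codes run from 3 to 5 for vector replicates 1 to 3, from 7 to 10 for the CFTR arrays and from 11 to 14 for vector replicates 4 to 7. No code range holds both groups, and the plasmid and any batch that runs with the codes cannot be told apart.

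Some vector arrays stood apart. Vector replicates 1 and 2 had a narrower range of values, with highest intensities of 13.7 and 12.4, against 16.6 to 19.5 on the other arrays. They differed from each other by an SD across genes of only 0.11, as vector replicates 5 and 7 did by 0.10, where the median vector pair differed by 0.48. Vector replicate 6 was nearly as close to these, at 0.13 and 0.12, and the closest CFTR pair differed by 0.15. Vector replicate 3 was nearer to the CFTR arrays over all genes (SD of the log2 difference 0.163 to 0.278) than to the other vector arrays (0.379 to 0.515). Results that turn on these arrays are given with and without them. URA3, the marker of pRS426 plasmids, was at 3.59 ± 0.08 in the CFTR arrays (SD, n = 4) and at 3.26 ± 0.37 in the controls (SD, n = 7), with overlap.

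Of the 10 genes, 2 passed the test, SSA4 and FES1, and both were higher in the CFTR arrays (limma, Benjamini-Hochberg adjusted p under 0.05 over all genes). Over all genes tested, 0.496% were called higher and 0.422% lower. SSA4 had the highest log2 fold change of the 5449 genes, SSE2 ranked 20 and FES1 ranked 53. The 10 fold changes were all above 0, with a median of 0.33, where the median of all genes was -0.041 and 42.2% of genes were above 0. After quantile normalization SSB1 and SSB2 lay below 0 and the median of the 10 was 0.26. In 3 genes, SSA4, SSA1 and SSE1, all CFTR arrays lay above all vector arrays, as did 2.4% of all genes.

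**Figure D1:**
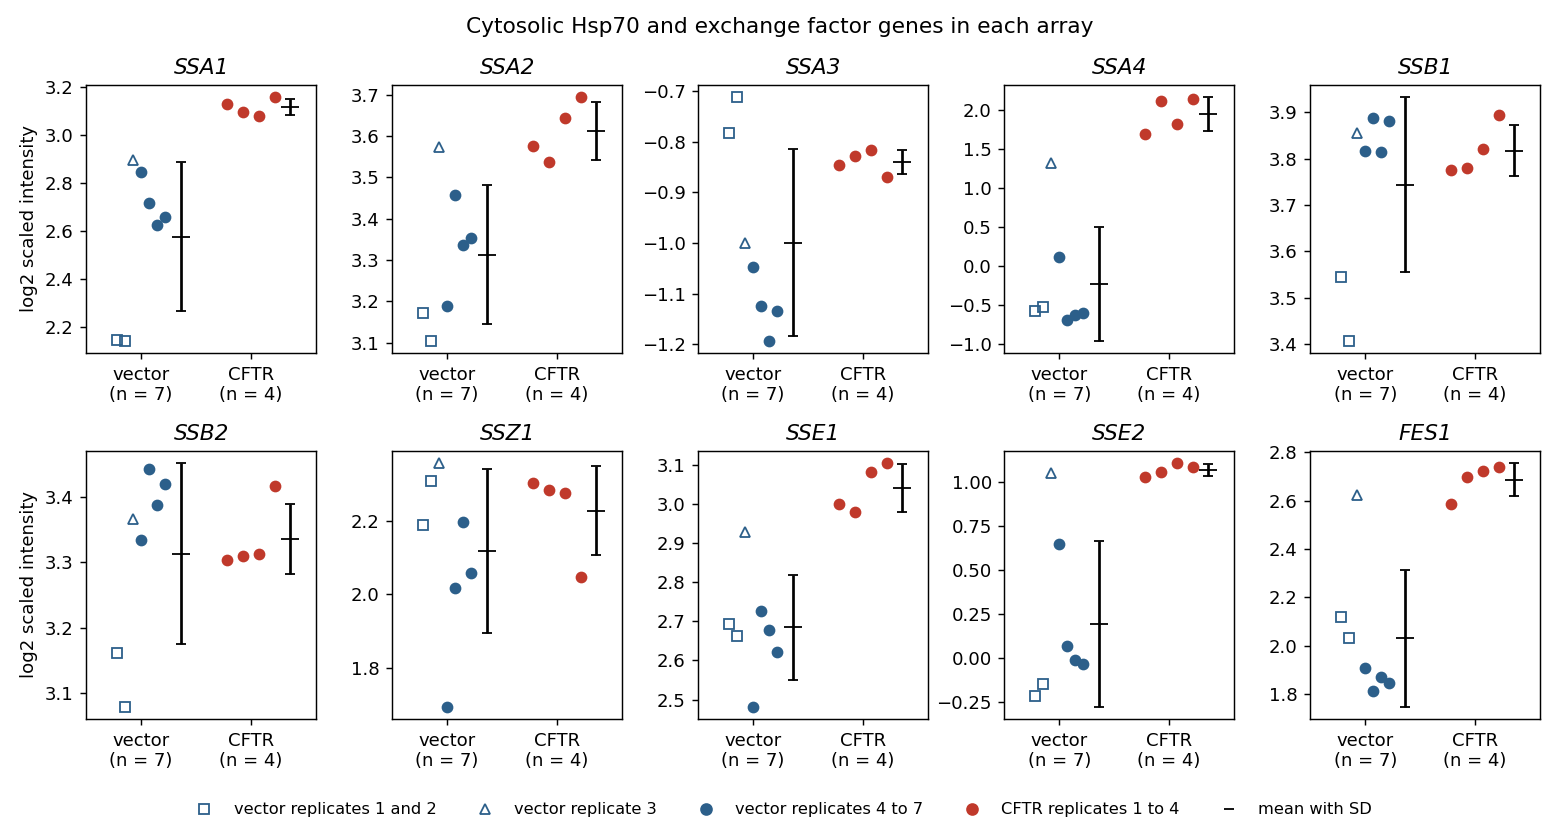
Log2 scaled intensity of the 10 genes in each of the 11 arrays, with 7 vector arrays at the left of each panel and 4 CFTR arrays at the right. Open squares are vector replicates 1 and 2, open triangles vector replicate 3, and the black bars give mean and SD over the arrays of a group. The panels have their own vertical scales. SSA4, SSA1 and SSE1 show no overlap between the groups, and in SSA4, SSE2 and FES1 the triangle sits apart from the other vector arrays.

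SSA4 encodes an Ssa protein that is made on heat shock. Its level was 1.70, 2.11, 1.82 and 2.14 in CFTR replicates 1 to 4. In the vector arrays it ran from -0.69 through a median of -0.58 to 1.32. The highest of these, vector replicate 3, was closer to the lowest CFTR array than to any other vector array, and vector replicate 4 came next at 0.11. The other 5 vector arrays lay between -0.69 and -0.52. The group means were 1.94 ± 0.22 (SD, n = 4) and -0.23 ± 0.73 (SD, n = 7), a difference of 2.17 (SE 0.34, limma adjusted p = 0.018) or 4.50-fold, with a 95% interval of 2.71-fold to 7.46-fold. Without vector replicate 3 the difference was 2.43 (SE 0.16, adjusted p = 3.7e-05). The call was lost without any single CFTR array (adjusted p = 0.062 to 0.12, with differences of 2.10 to 2.25) and without vector replicate 5 or 7 (adjusted p = 0.055 for each). It was also lost when vector replicates 1 and 2, and 5 and 7, were averaged and counted as 1 array each (adjusted p = 0.10), and with replicate 6 averaged with 5 and 7 as well (1.88, adjusted p = 0.31). Each averaged fit called 0.018% of all genes, and the fits without 1 of those single arrays called 0.037% to 0.15%.

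SSA3, the other inducible Ssa gene, did not pass. It was at -0.85, -0.83, -0.82 and -0.87 in CFTR replicates 1 to 4, and at -1.19, -1.05 and -0.71 as the lowest, median and highest vector array. These levels lie near the 95th percentile, -1.17, of the probe sets that were not matched to a single gene, and mostly above it. The lowest control, vector replicate 6, was below it, and the size of any change is uncertain. The CFTR arrays sat between vector replicates 1 and 2, which were higher, and the other vector arrays, which were lower. The difference was 0.16 (95% interval -0.071 to 0.39, limma adjusted p = 0.45). It was -0.0080 against vector replicates 1 to 3 alone. It was 0.29 against vector replicates 4 to 7 alone (adjusted p = 0.0015), and it passed after median centring (0.23, adjusted p = 0.047) and after quantile normalization (0.24, adjusted p = 0.041).

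SSA1 and SSA2, the Ssa genes of normal growth, had bright probe sets in every array. SSA1 was at 3.13, 3.10, 3.08 and 3.16 in CFTR replicates 1 to 4. Its vector arrays ran from 2.14 through a median of 2.66 to 2.90, the highest again being vector replicate 3. The groups did not overlap, and vector replicates 1 and 2, at 2.15 and 2.14, lay well under the other controls. The difference was 0.54 (SE 0.15, 95% interval 0.22 to 0.86, limma adjusted p = 0.092), which did not pass. Against vector replicates 4 to 7 alone SSA1 was 1.32-fold higher (adjusted p = 0.00063), and it passed without vector replicate 3 (adjusted p = 0.027).

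SSA2 was at 3.58, 3.54, 3.64 and 3.69 in the CFTR arrays, and its vector arrays ran from 3.10 through 3.34 to 3.57. Vector replicate 3 reached into the CFTR range, and the other controls stayed under it. The difference was 0.30 (SE 0.09, 95% interval 0.11 to 0.49, limma adjusted p = 0.12) and did not pass with all 11 arrays. It passed without vector replicate 3 (0.34, adjusted p = 0.021) and against vector replicates 4 to 7 alone (0.28, adjusted p = 0.0061). SSA1 and SSA2 are near-identical genes, and their probe sets may share signal.

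**Figure D2:**
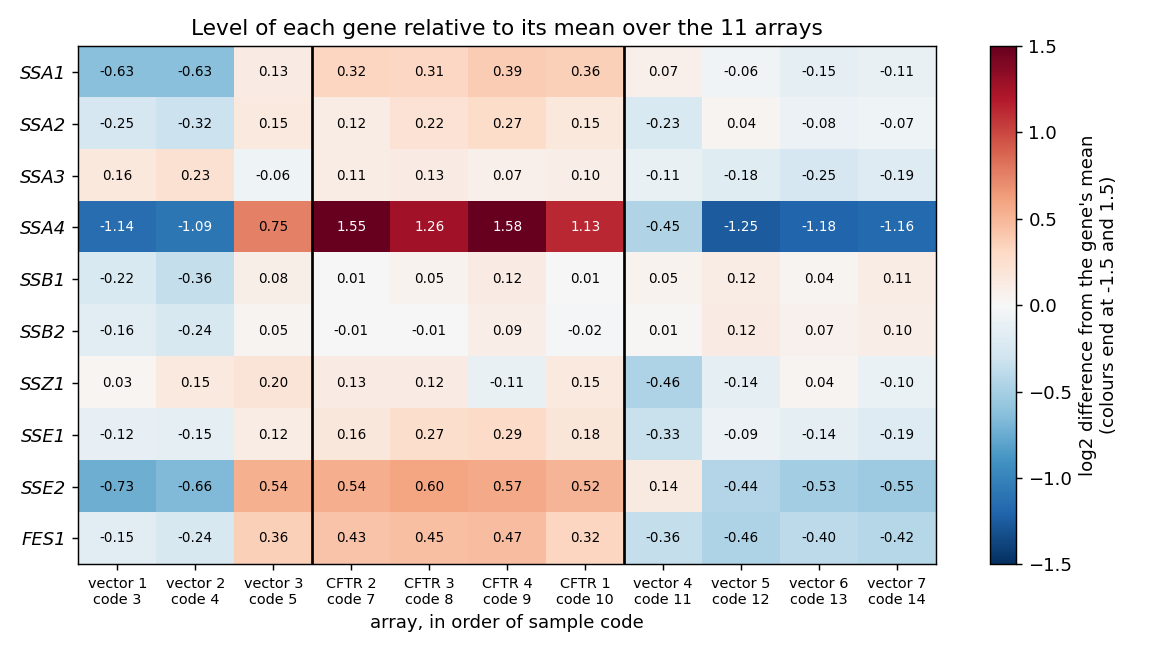
Log2 level of each gene minus its own mean over the 11 arrays, with genes in rows and arrays in columns by sample code; black lines part the code ranges. SSA1, SSA2, SSA4, SSE1, SSE2, FES1 and, by little, SSB1 are above their means in vector replicate 3 and in all CFTR arrays. In vector replicate 3, SSA4, SSE2 and FES1 are the furthest above. SSB1 and SSB2 differ mainly in vector replicates 1 and 2.

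The ribosome-bound Hsp70 genes did not pass. SSB1 was at 3.78, 3.78, 3.82 and 3.89 in the CFTR arrays and at 3.41, 3.82 and 3.89 as the lowest, median and highest vector array. SSB2 was at 3.30, 3.31, 3.31 and 3.42, against 3.08, 3.37 and 3.44. The CFTR arrays of SSB2 lay inside the vector range, and those of SSB1 too except for replicate 4, which was barely above the highest control. The lowest controls of both genes were vector replicates 1 and 2.

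The difference was 0.074 for SSB1 (95% interval -0.13 to 0.28, limma adjusted p = 0.72). For SSB2 it was 0.022 (95% interval -0.15 to 0.19, limma adjusted p = 0.91). In fold terms these intervals end at 1.22 for SSB1 and 1.14 for SSB2. Neither direction is settled: against vector replicates 4 to 7 alone the differences were -0.032 and -0.061, and after quantile normalization -0.0097 and -0.049. They were 0.092 and 0.031 without vector replicate 3, and without vector replicates 1 and 2 they were -0.033 and -0.055. The chosen SSB1 probe set is of the kind that Affymetrix marks as shared by several transcripts, and it may take up SSB2. The other SSB1 probe set gave a difference of 0.10 (SE 0.10, adjusted p = 0.63). SSB1 is also among the brightest signals of the array, at intensities of 10.6 to 14.9 where the brightest probe set of each array was at 12.4 to 19.5.

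SSZ1, the partner of the J protein Zuo1 at the ribosome, was at 2.30, 2.28, 2.27 and 2.05 in the CFTR arrays. The vector arrays ran from 1.69 through 2.19 to 2.36. The lowest was vector replicate 4 and the highest vector replicate 3, with the CFTR arrays between them. The difference was 0.11 (95% interval -0.14 to 0.36, limma adjusted p = 0.65), and -0.057 against vector replicates 1 to 3 alone. It was 0.15 without vector replicate 3 and 0.16 without vector replicates 1 and 2.

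Among the exchange factors, FES1 rose. It was at 2.59, 2.70, 2.72 and 2.74 in CFTR replicates 1 to 4, and its vector arrays ran from 1.81 through 1.91 to 2.62. Vector replicate 3, the highest control, lay within the CFTR range, and the other 6 controls lay between 1.81 and 2.12. The means were 2.69 ± 0.07 (SD, n = 4) and 2.03 ± 0.28 (SD, n = 7), a 1.58-fold difference (95% interval 1.28 to 1.94, limma adjusted p = 0.047). The call was near the threshold. It was lost without any 1 of the CFTR arrays or of vector replicates 1, 2, 4, 5, 6 and 7 (adjusted p = 0.070 to 0.19), while the log2 difference stayed between 0.62 and 0.69. Without vector replicate 3 it was 0.76 (adjusted p = 0.00037). With the near-identical vector arrays averaged it was 0.63 (adjusted p = 0.17), and with replicate 6 averaged too 0.57 (adjusted p = 0.44). Each averaged fit called 0.018% of all genes, and the single-array fits that lost the call called 0.037% to 0.62%.

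SSE1 encodes the main Hsp110 of the cell. It was at 3.00, 2.98, 3.08 and 3.10 in the CFTR arrays and at 2.48, 2.68 and 2.93 as the lowest, median and highest vector array. The groups did not overlap, and vector replicate 3 at 2.93 was the control nearest to the lowest CFTR array at 2.98. The difference was 0.36 (SE 0.08, 95% interval 0.19 to 0.53), or 1.28-fold, with a limma adjusted p = 0.054. It passed when dim genes were left out of the test (adjusted p = 0.049) and without vector replicate 3 (0.40, adjusted p = 0.0047).

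SSE2 is the stress-inducible copy. It was at 1.03, 1.06, 1.11 and 1.08 in the CFTR arrays, a spread of only 0.03 (SD, n = 4). Its vector arrays were at -0.22, -0.14, 1.05, 0.65, 0.07, -0.01 and -0.03 in replicates 1 to 7. Vector replicate 3 was inside the CFTR range and vector replicate 4 between the CFTR arrays and the rest, with the other 5 controls near or below 0.07. The difference was 0.87 (SE 0.22, 95% interval 0.40 to 1.34), or 1.83-fold, and did not pass (limma adjusted p = 0.079). Without vector replicate 3 it was 1.02 (adjusted p = 0.0027), and without vector replicates 1 and 2 it was 0.72 (adjusted p = 0.044).

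How many of the 10 genes passed moved with the controls, among other settings. Without vector replicate 3 there were 6, SSA1, SSA2, SSA4, SSE1, SSE2 and FES1, in a fit that called 4.04% of all genes higher. Against vector replicates 4 to 7 alone 7 passed, these 6 and SSA3, where 26.9% of all genes were called higher. Against vector replicates 1 to 3 alone none passed, and 0.0184% of genes were called higher. At an unadjusted p under 0.05, limma had SSA1, SSA2, SSA4, SSE1, SSE2 and FES1 higher against these controls, 6 of 10, beside 7.27% of all genes. The median of all genes was itself -0.15 there. Without vector replicates 1 and 2 the same 7 passed, and 12.3% of all genes were called higher. With all controls kept, none passed once any 1 CFTR array was left out, in fits that called 0.037% to 0.15% of all genes. The fit with every array kept called 0.918%, so that calls were lost over all genes and not only among those described here. These fits share the CFTR arrays. SSA4 was higher by 1.87 (95% interval 0.86 to 2.88) against vector replicates 1 to 3 and by 2.39 (1.97 to 2.81) against vector replicates 4 to 7. FES1 was higher by 0.43 (0.10 to 0.75) and by 0.83 (0.72 to 0.93).

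**Figure D3:**
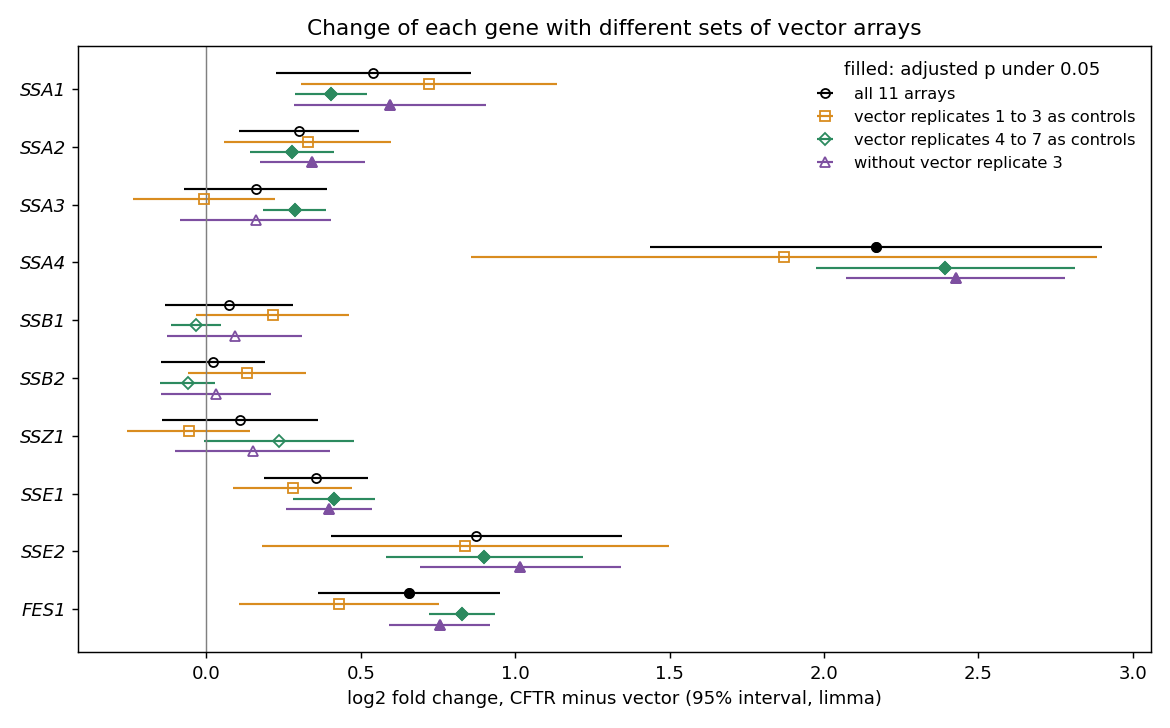
Log2 fold change of the 10 genes between CFTR and vector arrays, with 95% intervals from limma, for 4 sets of vector arrays. Filled symbols passed at an adjusted p under 0.05. SSA4 stays between 1.87 and 2.43 in all 4 sets, while SSA3, SSB1, SSB2 and SSZ1 each change sign in at least 1 set.

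The yeast genes come in pairs, and a difference within an array does not depend on a single scale factor for that array. It still carries a narrower range of values, as in vector replicates 1 and 2. Of 4 pairs compared, SSA4 and SSA3 passed. SSA3 lay near background, so that this difference mostly restates the change of SSA4. The level of SSA4 minus that of SSA3 was 2.54 to 3.01 in the CFTR arrays and 0.19 to 2.32 in the vector arrays, the highest being vector replicate 3. The mean difference between the groups was 2.01, and no vector array reached the lowest of the 4 CFTR arrays (exact two-sided permutation p = 0.0030, the lowest value possible with 330 splits, and 0.012 after adjustment over the 4 pairs). Against vector replicates 1 to 3 or 4 to 7 alone, where the exact p cannot go below 0.029, the adjusted p was 0.057 and 0.11, with differences of 1.88 and 2.11. With the near-identical arrays averaged it was 0.063, and without vector replicates 1 and 2 also 0.063.

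The other 3 pairs did not pass. SSE2 minus SSE1 was -1.97 ± 0.04 in the CFTR arrays (SD, n = 4) and -2.49 ± 0.44 in the controls (SD, n = 7). Vector replicates 3 and 4, at -1.88 and -1.83, lay above all CFTR arrays, and the other 5 controls lay below them (exact permutation p = 0.061, adjusted p = 0.089). SSA1 minus SSA2 was -0.50 ± 0.06 (SD, n = 4) and -0.74 ± 0.22 (SD, n = 7), with vector replicate 4 at -0.34 above all CFTR arrays (exact permutation p = 0.067, adjusted p = 0.089). Without vector replicate 4 this pair passed, with a difference of 0.31 (exact permutation, adjusted p = 0.0095). SSB1 minus SSB2 was 0.48 ± 0.02 (SD, n = 4) and 0.43 ± 0.06 (SD, n = 7) (exact permutation p = 0.12, adjusted p = 0.12).

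**Figure D4:**
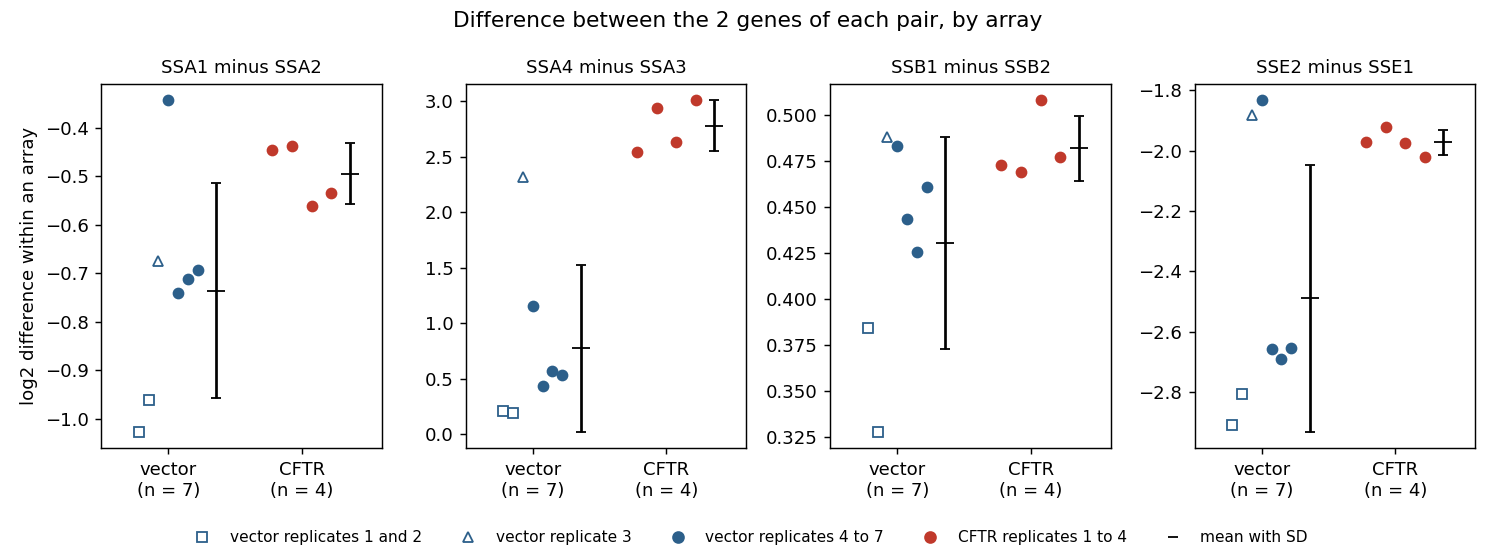
Difference in log2 level between the genes of each pair, computed within each array, with 7 vector arrays and 4 CFTR arrays and bars for mean and SD. Symbols are as in the plot of levels and the panels have their own vertical scales. Only the SSA4 and SSA3 panel has all CFTR points above all vector points.

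Genes that work with the cytosolic Hsp70s were counted from fixed lists. Of 12 J proteins, 1 rose, SIS1, a J protein of the cytosol and nucleus that works with Ssa proteins (0.76, SE 0.16, limma adjusted p = 0.047), and none fell. Against vector replicates 1 to 3 alone SIS1 was 0.49 higher and did not pass (adjusted p = 0.18), in a fit that called 0.0184% of all genes higher. With all 11 arrays, APJ1 (0.66, SE 0.17, adjusted p = 0.086) and YDJ1, the main J protein partner of Ssa (0.55, SE 0.16, adjusted p = 0.11), did not pass. Nor did DJP1 at the other end (-0.34, SE 0.17, adjusted p = 0.32). The median of the J proteins was -0.10, with 5 of 12 above 0. It was -0.35 against vector replicates 1 to 3 alone and 0.10 against vector replicates 4 to 7 alone. JJJ1, JJJ2 and JJJ3, which differed by less than 0 with all 11 arrays, had mean levels under -1.17 in both groups. The size of any change in them is uncertain. ZUO1, which recruits Ssb to nascent chains with Ssz1, had a difference of 0.10 (SE 0.08, adjusted p = 0.54). Without vector replicate 3, 3 J proteins passed, all higher, in a fit that called 4.04% of all genes higher.

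Of 6 further helpers and Hsp90 genes, HSP82, which encodes an Hsp90, rose (0.96, SE 0.16, limma adjusted p = 0.024). Against vector replicates 1 to 3 alone HSP82 was 0.73 higher and did not pass (adjusted p = 0.18), in a fit that called 0.0184% of all genes higher. With all 11 arrays, next came HSP104, the disaggregase that works with Hsp70 (0.81, SE 0.18, adjusted p = 0.057). STI1, which joins Hsp70 to Hsp90, had a difference of 0.57 (SE 0.14, adjusted p = 0.083), and SNL1, an exchange factor anchored in the ER membrane, 0.34 (SE 0.15, adjusted p = 0.27). The median of these 6 genes was 0.45, and 4 of them had all CFTR arrays above all vector arrays, as did 2.4% of all genes. Without vector replicate 3, 4 passed, in a fit that called 4.04% of all genes higher.

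Of 10 genes of the Hsp70 systems in the ER and mitochondria, 1 rose, MDJ1, a mitochondrial J protein (0.93, SE 0.17, limma adjusted p = 0.036). Against vector replicates 1 to 3 alone MDJ1 was 0.57 higher and did not pass (adjusted p = 0.18), in a fit that called 0.0184% of all genes higher. SCJ1, an ER J protein, had a difference of 0.40 (SE 0.11, adjusted p = 0.10). KAR2, the ER Hsp70, was 0.31 higher (SE 0.07, adjusted p = 0.059), and SSC1, the main mitochondrial Hsp70, differed by -0.0079 (SE 0.07, adjusted p = 0.97), which turned positive after median centring. The median of this list was 0.15. ECM10 and JEM1 had mean levels under -1.17 in both groups, so that the size of any change in them is uncertain. Without vector replicate 3, MDJ1 and KAR2 passed (KAR2 0.33, limma adjusted p = 0.021), in a fit that called 4.04% of all genes higher.

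None of the 3 nascent chain factors passed, and 1 of 3 had an unadjusted p under 0.05 in limma, as did 18.2% of all genes tested. EGD2 (0.19, SE 0.08, limma adjusted p = 0.24) and BTT1 (-0.18, SE 0.22, adjusted p = 0.69) had the largest differences, and the level of BTT1 lay near background. None of 127 cytosolic ribosomal protein genes passed, of which RPS9A (0.33, SE 0.17, adjusted p = 0.33) and RPS14B (0.33, SE 0.11, adjusted p = 0.14) had the largest differences. Of these genes 2 of 127 had an unadjusted p under 0.05, a smaller share than the 18.2% of all genes. The list median of 0.10, with 126 above 0, stood beside 0.074, 0.022 and 0.11 for SSB1, SSB2 and SSZ1. After quantile normalization 102 of the 127 were above 0. Against vector replicates 4 to 7 alone the ribosomal protein median was -0.011.

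None of the 5 regulators passed with all 11 arrays, and 3 had an unadjusted p under 0.05 in limma, beside the 18.2% of all genes. MSN4 (-0.50, SE 0.12, limma adjusted p = 0.075) and MSN2 (-0.41, SE 0.11, adjusted p = 0.094), the activators of general stress genes, had all CFTR arrays below all vector arrays, as did 3.34% of all genes. SKN7, a regulator of oxidative stress genes, had a difference of -0.44 (SE 0.15, adjusted p = 0.15), with overlap between the groups. HSF1, the heat shock activator of Hsp70 genes, had a difference of -0.16 (SE 0.10, adjusted p = 0.42). Its level lay near background, with means of -1.04 in the CFTR arrays and -0.88 in the controls, and the size of any change is uncertain. GAC1, a regulatory subunit of protein phosphatase 1, was the only regulator above 0 (0.15, SE 0.45, adjusted p = 0.89). It was at 1.02 against vector replicates 1 to 3 alone and at -0.50 against vector replicates 4 to 7 alone. The list median was -0.41, and 3 of the 5 were called lower without vector replicate 3, where 5.52% of all genes were.

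**Figure D5:**
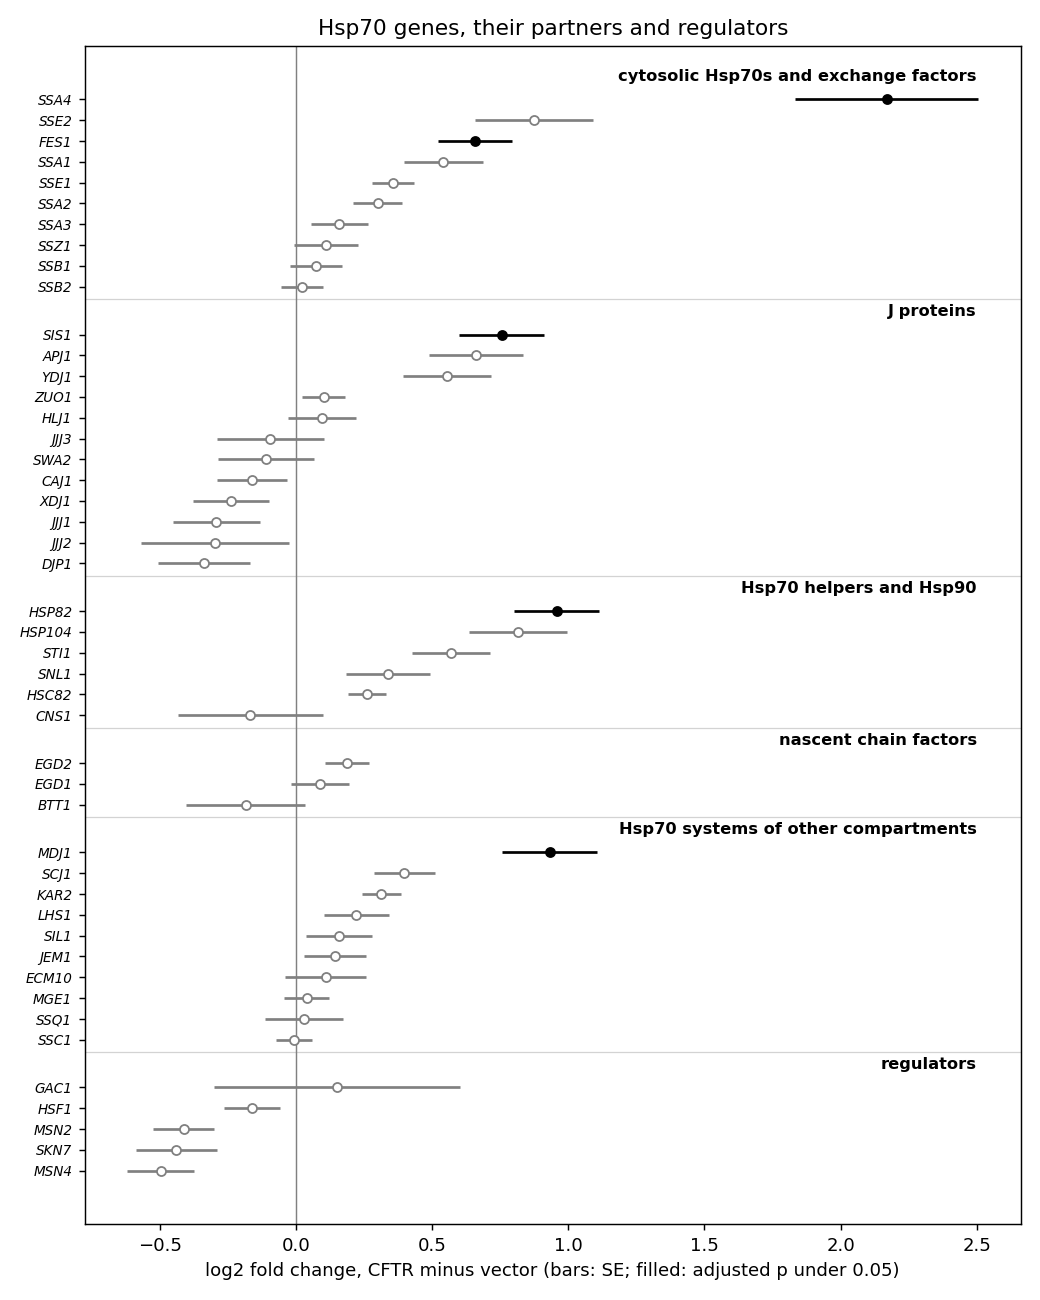
Log2 fold change with SE of the 10 genes and of the 36 partner and regulator genes, CFTR minus vector over all 11 arrays, ordered within each list. Filled symbols passed at an adjusted p under 0.05: SSA4, FES1, SIS1, HSP82 and MDJ1.

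SSA4, SSE2 and FES1 varied most over the 11 arrays, and the genes most like them in log2 level are given as a description. All these correlations share the group difference and vector replicate 3. Closest to SSA4 were MBF1, a transcriptional coactivator (Pearson r = 0.992), HSP78, a mitochondrial disaggregase (0.985), and CPR6, an Hsp90-binding cyclophilin (0.982). Closest to FES1 were SIS1 (0.996), the proteasome subunit gene PRE6 (0.986) and YER152C (0.983). Closest to SSE2 were UGP1, of UDP-glucose synthesis, HSP42, a small heat shock protein, and YSC84, each at 0.97. With the group means taken out but vector replicate 3 kept, these 9 correlations were between 0.93 and 0.99.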

How the data were processed

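The deposited file holds linear intensities per probe set, scaled by the authors so that every array has a mean of 1, as tested on the values. RNA was labelled with a 3' IVT kit, per the labels' protocols. No label or header names the software or the steps before scaling. Of 10715 probe sets, 5498 matched 1 gene of the R64 gene table through the platform annotation, and the brightest per gene gave 5449 genes. Values were log2-transformed with no floor and fitted in R 4.3.3 with limma 3.58.1 (lmFit, then eBayes allowing an intensity trend) and adjusted over all genes by Benjamini-Hochberg. The fit was checked on simulated data with independent arrays. These held no near-identical arrays and no control close to the CFTR arrays, so that the check does not cover those features. Pairs were compared by exact permutation. Vector replicates are numbered as in the labels; CFTR numbers follow deposition order and pair nothing. Precision is limited by the number of arrays.

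The 10 genes and the partner lists were chosen with earlier results of these data known. All 10 genes are named, and from each partner list those past the threshold (at most 4) and otherwise the 2 largest changes, with ZUO1, DJP1, SNL1, SSC1, HSF1, MSN2 and GAC1 added after their values were seen. Likeness covers the 3 genes with the largest SD. Alternatives were other normalizations, models, filters, probe sets and controls, and leaving out each array. Plots used Python 3.11.15 and matplotlib 3.10.9.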

Additional observations from a re-analysis of the deposited data

Results flagged for a closer look

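In 4 of the 20 sets of arrays (10 genes in 2 groups), 1 array lay far from the rest of its group. Chance flags about 1 in 20 where arrays are independent. The 10 genes share their arrays and some vector arrays are near-identical, so that the 4 flags cannot be set against that rate. The SSA4 level of 1.32 in vector replicate 3 stood above the other 6 vector arrays, which reached 0.11 at most. The FES1 level of 2.62 in the same array stood above the others, at 1.81 to 2.12. In CFTR replicate 4, SSZ1 was at 2.05, below 2.27 to 2.30 in the other CFTR arrays. In that array SSB2 was at 3.42, above 3.30 to 3.31.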

How the results depend on the processing

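No paired analysis was possible because the CFTR arrays carry no replicate numbers in the labels. Of the 10 genes, 2 passed with all 11 arrays, where 0.918% of all genes were called. The number was 1 without an intensity trend, again with 0.918% of all genes called. It was 9 with array weights (8 higher and SSB2 lower, in a fit that called 60.7% of all genes). It was 0 against vector replicates 1 to 3, and 0 with near-identical vector arrays averaged (replicates 1 with 2 and 5 with 7, or, chosen after seeing the data, 5 to 7). Each of these fits called 0.018% of all genes. It was 7 against vector replicates 4 to 7, where 43.9% of all genes were called. It was also 7 without vector replicates 1 and 2 together, also chosen after seeing the data, where 18.4% of all genes were called. Leaving out single arrays gave 0 to 6, in fits that called 0.037% to 9.56% of all genes. Of the pairs, 1 passed, against 0 with either part of the vector arrays alone, with near-identical arrays averaged or without vector replicates 1 and 2, and 1 to 2 without single arrays; fewer arrays allow fewer splits there. SSA4 was higher by 1.87 to 2.52 under the 24 alternatives and passed in 15, and FES1 by 0.43 to 0.85, passing in 10. SSA1, SSA2, SSE1 and SSE2 were above 0 in all 24, but passed in only 4, 4, 5 and 4 of them. In this order their limma adjusted p-values after median centring were 0.15, 0.23, 0.085 and 0.073. Their highest adjusted p-values were 0.44 to 0.50, with vector replicates 1 and 2, and 5 to 7, averaged. SSA3 turned to -0.0080 and SSZ1 to -0.057 against vector replicates 1 to 3. SSB1 turned to -0.0097 (quantile normalization), -0.041 (array weights), -0.032 (vector replicates 4 to 7) and -0.033 (without vector replicates 1 and 2). SSB2 turned to -0.049, -0.085, -0.061 and -0.055 under the same settings, and to -0.0046, -0.0030 and -0.017 without CFTR replicate 4, vector replicate 1 or vector replicate 2, in a range of -0.017 to 0.044 over single arrays left out. The cause of these turns was not tested.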
